A study of Mus musculus with 26 samples.

Results

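The phagocyte NADPH oxidase is the enzyme with which neutrophils and monocytes make superoxide. Its subunit genes were followed here in KPC mice, a genetically engineered model in which Cre recombinase acts in the pancreas and pancreatic ductal adenocarcinoma develops. The list held 6 genes, Cybb, Cyba, Ncf1, Ncf4, Rac1 and Rac2, and was taken by gene symbol, not by measured values. Of these, 5 were measured, out of 14131 genes in each sorted-cell library and 16322 in each tumour library. Cybb, which encodes the catalytic subunit and lies on chromosome X, was not analysed here, and the files held 0 genes of chromosomes X and Y.

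The mice carried tumours and received GS9820, which inhibits phosphoinositide 3-kinase (PI3K) through its leukocyte-enriched catalytic subunit p110δ, or vehicle. Per the labels, treated animals received the inhibitor for 14 days, and no day was given for vehicle animals. Polymorphonuclear cells (PMN, the class that includes neutrophils) sorted from spleen gave 4 GS9820 and 3 vehicle libraries, monocytes sorted from spleen gave 4 GS9820 and 3 vehicle libraries, and whole tumours gave 5 GS9820 and 7 vehicle libraries. Titles of all PMN libraries held the word low and those of all monocyte libraries the word high, and the labels did not explain these words. What they mark cannot be told apart from cell type. All 26 libraries came from tumour-bearing KPC mice, so no group was free of a tumour, and the labels gave neither the alleles, the age nor the sex of the animals. The labels did not say whether libraries of a group came from separate animals, so p-values measure the spread between libraries, which may in part be technical.

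The oxidase is assembled on demand. In the resting phagocyte, the membrane holds a flavocytochrome of gp91phox (Cybb) and p22phox (Cyba), while p47phox (Ncf1) and p40phox (Ncf4) wait in the cytosol and the GTPase Rac waits bound to an inhibitor. On stimulation the cytosolic parts move to the membrane and electrons pass from NADPH to oxygen, giving superoxide. The lipids made by PI3K enter at this step, since p47phox and p40phox bind phosphoinositides through their PX domains and some Rac exchange factors are switched on by them. Transcript levels, measured here, say nothing of assembly or of enzyme activity.

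Values are log2 levels as the authors deposited them, under the name log2 RPKM, and a difference of 1 is a 2-fold change. The libraries of a set share nearly 1 distribution, so sequencing depth is unknown and a value gives a gene's level relative to the rest of its library. In bulk samples, fewer cells of a type and less RNA per cell cannot be told apart. Tumours and sorted cells were normalized separately, so levels of these sets are not compared by test.

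The sorted cells carried the markers of their labels, with some of the other type. Several neutrophil markers stood in monocytes near their level in PMN. The mean log2 level of 15 neutrophil markers was 11.64 to 12.18 in GS9820 PMN and 11.87 to 11.96 in vehicle PMN, against 8.63 to 9.93 in GS9820 monocytes and 8.15 to 10.44 in vehicle monocytes. Of the 15, 0 had a group mean at or below 0. The log2 of their summed level was 16.39 to 16.59 and 16.45 to 16.55 in GS9820 and vehicle PMN, and 15.19 to 15.97 and 14.70 to 16.06 in GS9820 and vehicle monocytes. S100a8, the most abundant of them, held 14.05 in every PMN library, the top value that sorted-cell libraries share, and averaged 13.71 ± 0.41 (SD, n = 4) in GS9820 monocytes and 13.65 ± 0.70 (SD, n = 3) in vehicle monocytes. Of the 15, 10 were called higher in PMN in GS9820 mice and 8 in vehicle mice, with 0 lower. Camp averaged 12.70 in PMN and 12.50 in monocytes of GS9820 mice, and 12.36 and 12.43 in vehicle mice. Ngp averaged 13.44 in PMN and 13.20 in monocytes of GS9820 mice, and 13.44 and 13.17 in vehicle mice. The mean of 12 monocyte markers was 6.14 to 6.71 in GS9820 PMN and 5.83 to 7.20 in vehicle PMN, against 8.79 to 9.25 in GS9820 monocytes and 8.10 to 9.51 in vehicle monocytes. Neutrophil marker transcripts thus varied between monocyte libraries, with vehicle replicate 3 (8.15) and GS9820 replicate 2 (8.63) lowest. Results that rest on these 2 libraries are given with and without them, a choice made after seeing the data. Markers of other leukocytes were also higher in PMN. The mean of 4 measured eosinophil markers was 3.02 to 5.21 in GS9820 PMN and 2.93 to 4.92 in vehicle PMN, against -0.57 to 0.29 in GS9820 monocytes and -0.29 to 1.61 in vehicle monocytes. That of 6 NK cell markers was 3.1 to 5.34 in GS9820 PMN and 0.99 to 6.20 in vehicle PMN, against 0.08 to 1.36 in GS9820 monocytes and -0.30 to 2.76 in vehicle monocytes. That of 7 B cell markers was 3.74 to 4.24 in GS9820 PMN and 4.02 to 4.56 in vehicle PMN, against 1.73 to 3.1 in GS9820 monocytes and 1.88 to 3.18 in vehicle monocytes. Their median differences between PMN and monocytes were 3.96, 3.95 and 1.35 in GS9820 mice (4 of 4, 6 of 6 and 6 of 7 called higher). In vehicle mice these were 3.08, 2.66 and 1.78 (2 of 4, 3 of 6 and 7 of 7). Of all genes, 32.1% were called higher in GS9820 and 27.2% in vehicle mice. The part of these other leukocytes in the PMN values was not tested.

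In the spleen, PMN and monocytes both held high levels of every subunit gene measured. All 5 stood between the 92.1 and 99.6 percentile of their library in all 14 sorted-cell libraries. Among the 5 genes, the clearest difference between the cell types was in the Rac pair: Rac2, the GTPase largely restricted to blood cells, was higher in PMN, by 2.21-fold in GS9820 and 1.79-fold in vehicle mice. Rac1, its ubiquitous relative, was lower in PMN, a difference that passed the test in GS9820 mice. Of 7 pan-leukocyte markers, 5 were also called higher in PMN under both treatments and 0 lower. Their median difference was 0.71 in GS9820 and 0.82 in vehicle mice. Whether the Rac2 difference is separate from that of these markers was not tested. Cyba, Ncf1 and Ncf4 did not pass the test between PMN and monocytes under either treatment. Of the 5 genes, 1 was called higher and 1 lower in GS9820 mice, where 69.6% of all 13968 genes tested were called (32.1% higher and 37.6% lower). In vehicle mice 1 was called higher and 0 lower, where 60.1% were called (27.2% higher and 32.8% lower). The count of oxidase genes called depended on the fit: 4 of 5 were called in GS9820 mice when only the groups compared were fitted. Calls are at an adjusted p under 0.05 (limma, Benjamini-Hochberg over all genes tested).

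**Figure D1:**
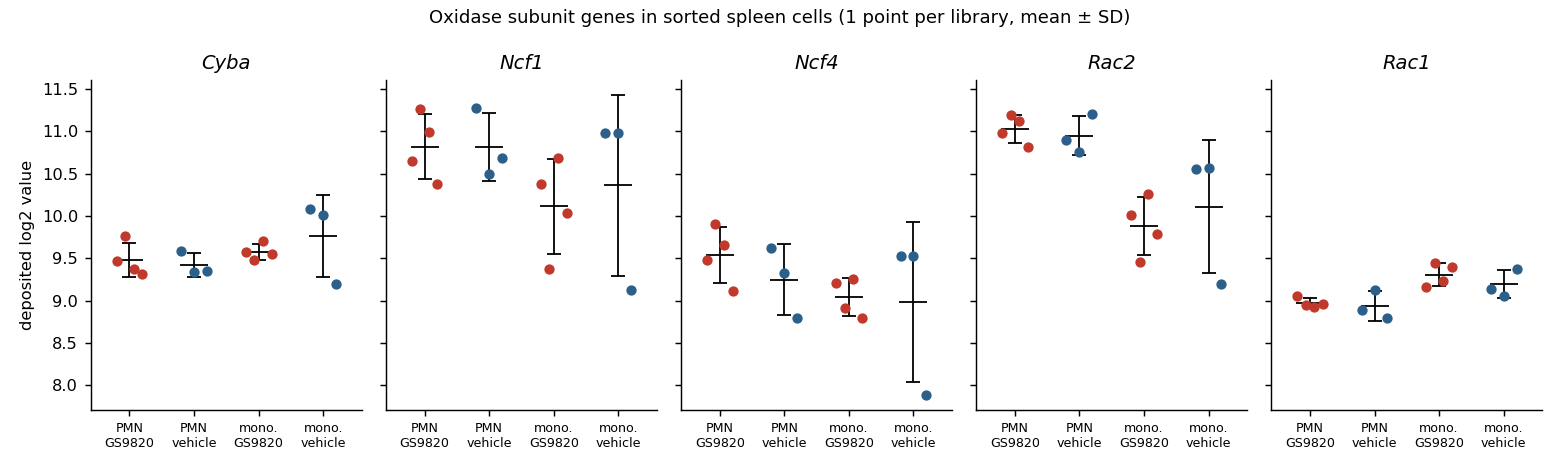
Deposited log2 values of the 5 oxidase subunit genes in sorted spleen cells, 1 point per library, with group mean and SD (n = 4 for GS9820 groups, n = 3 for vehicle groups). The PMN points of Rac2 lie above all monocyte points, while vehicle monocyte replicate 3 is the lowest point of Ncf1, Ncf4, Rac2 and Cyba.

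Cyba encodes p22phox, the membrane partner that stabilizes the catalytic subunit (ENSMUSG00000006519, chromosome 8, 122424776 to 122432930, minus strand, GRCm38). Its log2 level was 9.47, 9.76, 9.37 and 9.31 in GS9820 PMN and 9.58, 9.48, 9.70 and 9.55 in GS9820 monocytes. In vehicle mice it was 9.59, 9.34 and 9.35 in PMN and 10.08, 10.01 and 9.20 in monocytes. PMN and monocytes overlapped under both treatments, and vehicle monocytes held both the highest and the lowest values of the set. The PMN minus monocyte difference was -0.10 ± 0.18 (SE) in GS9820 mice, with a 95% confidence interval from -0.48 to 0.29, and -0.33 ± 0.20 in vehicle mice, with an interval from -0.78 to 0.11 (limma, adjusted p = 0.637 and 0.173). Without the 2 monocyte libraries lowest in neutrophil markers, the vehicle difference was -0.62 ± 0.14 and Cyba was called lower in PMN (limma, adjusted p = 0.00369), while the GS9820 difference was -0.13 (adjusted p = 0.356).

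Ncf1 encodes p47phox, the organizer subunit that is phosphorylated when the enzyme is switched on (ENSMUSG00000015950, chromosome 5, 134220053 to 134229625, minus strand). It stood at 10.65, 11.26, 10.99 and 10.38 in GS9820 PMN and at 10.38, 9.37, 10.68 and 10.03 in GS9820 monocytes. In vehicle mice it stood at 11.27, 10.50 and 10.68 in PMN and at 10.98, 10.98 and 9.13 in monocytes. The groups overlapped, and the lowest monocyte value under each treatment came from the library lowest in neutrophil markers. The difference was 0.71 ± 0.41 in GS9820 mice and 0.46 ± 0.47 in vehicle mice (limma, adjusted p = 0.137 and 0.413). Without those 2 libraries it was 0.46 in GS9820 mice and -0.16 in vehicle mice, where the sign turned (adjusted p = 0.119 and 0.661). The share that neutrophil RNA had in these values was not tested.

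Ncf4 encodes p40phox, whose PX domain binds phosphatidylinositol 3-phosphate, a product of class III PI3K (ENSMUSG00000071715, chromosome 15, 78244801 to 78262580, plus strand). Its values were 9.48, 9.91, 9.66 and 9.12 in GS9820 PMN and 9.21, 8.91, 9.26 and 8.80 in GS9820 monocytes. They were 9.62, 9.33 and 8.80 in vehicle PMN and 9.53, 9.53 and 7.89 in vehicle monocytes. In GS9820 mice 3 of 4 PMN libraries lay above all monocyte libraries, and in vehicle mice 1 of 3 did. The difference was 0.50 ± 0.33 in GS9820 mice and 0.26 ± 0.38 in vehicle mice (limma, adjusted p = 0.192 and 0.562). Leaving out both monocyte libraries gave 0.45 in GS9820 mice and -0.28 in vehicle mice (adjusted p = 0.0878 and 0.374). The library that widened the spread was vehicle monocyte replicate 3: without it alone, Ncf1 and Ncf4 passed in GS9820 mice at the same differences of 0.71 and 0.50, since the groups share 1 estimate of the spread (limma, adjusted p = 0.0378 and 0.0379).

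The Rac GTPases carry the on-switch of the oxidase. Rac2 lies on chromosome 15 (ENSMUSG00000033220, 78559167 to 78572783, minus strand) and Rac1 on chromosome 5 (ENSMUSG00000001847, 143503634 to 143528036, minus strand). Their coding sequences are close relatives, with 446 of 579 bases identical (77.0%, GENCODE M21, GRCm38), which bears on whether reads of these genes can be told apart. The longest identical run in the coding sequence was 29 bases, shorter than the 100-base reads of the study, and the genes shared 0 words of 100 bases over their transcripts.

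Rac2 was higher in every PMN library than in every monocyte library. It stood at 10.98, 11.19, 11.12 and 10.82 in GS9820 PMN, against 10.01, 9.46, 10.26 and 9.79 in GS9820 monocytes. In vehicle mice it stood at 10.90, 10.75 and 11.20 in PMN, against 10.55, 10.57 and 9.20 in monocytes. The difference was 1.15 ± 0.28 in GS9820 mice and 0.84 ± 0.32 in vehicle mice (limma, adjusted p = 0.00246 and 0.036). The vehicle value rested on few libraries: without vehicle monocyte replicate 3 it was 0.39 ± 0.22 (adjusted p = 0.14), without vehicle PMN replicate 1 or 3 it was 0.87 and 0.72 (adjusted p = 0.0649 and 0.113), and without both monocyte libraries it was 0.39 (adjusted p = 0.0896). The vehicle call was also lost with a replicate block (0.84, adjusted p = 0.0695), with array quality weights (0.74, adjusted p = 0.11) and when only the groups compared were fitted (0.84, adjusted p = 0.133). In GS9820 mice Rac2 still passed without both monocyte libraries, at 1.0 (adjusted p = 1.63e-04).

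Rac1 ran the other way. It stood at 9.06, 8.95, 8.92 and 8.96 in GS9820 PMN, against 9.16, 9.44, 9.23 and 9.40 in GS9820 monocytes, and these groups did not overlap. In vehicle mice it stood at 8.89, 9.13 and 8.79 in PMN, against 9.14, 9.06 and 9.38 in monocytes, with 2 of 3 PMN libraries below all monocyte libraries. The difference was -0.34 ± 0.11 in GS9820 mice, a call, and -0.26 ± 0.12 in vehicle mice, which did not pass (limma, adjusted p = 0.0131 and 0.0828). Without vehicle PMN replicate 2 the vehicle difference was -0.36 and passed (adjusted p = 0.0316), and without both monocyte libraries it was -0.17 (adjusted p = 0.249).

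The balance of Rac2 and Rac1 was taken inside each library, so a shift common to all genes of a library cancels. The deposited values already shared nearly 1 distribution, and the part of that scaling in the balance was not tested. Rac2 minus Rac1 averaged 2.03 ± 0.27 in 7 PMN libraries (1.62 to 2.41) and 0.72 ± 0.66 in 7 monocyte libraries (-0.18 to 1.51). These ranges did not overlap, and the difference of 1.32 gave p = 5.8e-04 in an exact two-sided permutation test, the smallest p that 3432 splits allow (adjusted p = 0.0035 over 12 such tests). Leaving out both monocyte libraries low in neutrophil markers gave 1.0 (exact permutation p = 0.00126, adjusted p = 0.00758). Among monocyte libraries, those high in neutrophil markers were high in Rac2 and low in Rac1.

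Ncf1 minus Cyba, the organizer set against the membrane partner, likewise differed. It averaged 1.36 ± 0.24 in PMN (1.06 to 1.68) and 0.56 ± 0.48 in monocytes (-0.11 to 0.98), with no overlap (difference 0.80, exact permutation p = 5.8e-04, adjusted p = 0.0035). Without both monocyte libraries the difference was 0.54 (exact permutation p = 0.00379, adjusted p = 0.0227). Ncf4 minus Ncf1, which compares both PX-domain subunits, averaged -1.40 ± 0.27 in PMN and -1.20 ± 0.35 in monocytes, and the ranges overlapped (difference -0.20, exact permutation p = 0.273, adjusted p = 0.409).

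**Figure D2:**
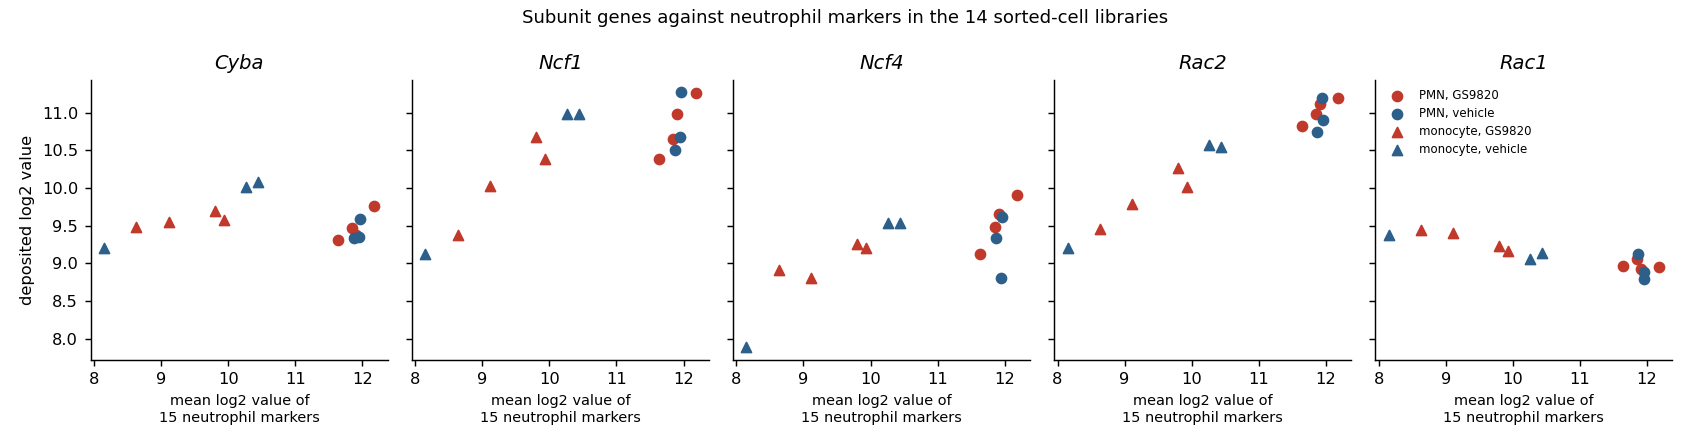
Deposited log2 value of each subunit gene (vertical axis) against the mean log2 value of 15 neutrophil markers (horizontal axis) in the 14 sorted-cell libraries. Among monocytes, libraries with more neutrophil transcript hold more Ncf1 (9.13 to 10.98) and Rac2 (9.20 to 10.57) and less Rac1 (9.06 to 9.44).

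Within PMN the 5 genes had nearly the same order under both treatments, on the authors' scale per length of transcript. In GS9820 PMN, Rac2 averaged 11.02 ± 0.16 and Ncf1 10.82 ± 0.38, neighbours whose ranges overlapped. Below them stood Ncf4 at 9.54 ± 0.33 and Cyba at 9.48 ± 0.20, which also overlapped, and then Rac1 at 8.97 ± 0.06 (SD, n = 4). Vehicle PMN gave 10.95 ± 0.23 for Rac2, 10.82 ± 0.40 for Ncf1, 9.43 ± 0.14 for Cyba, 9.25 ± 0.42 for Ncf4 and 8.93 ± 0.17 for Rac1 (SD, n = 3), with Cyba and Ncf4 in the other order. In GS9820 monocytes the order was Ncf1 at 10.11 ± 0.56, Rac2 at 9.88 ± 0.34, Cyba at 9.57 ± 0.09, Rac1 at 9.31 ± 0.13 and Ncf4 at 9.05 ± 0.23. In vehicle monocytes Ncf1 and Rac2 again stood first, at 10.36 ± 1.07 and 10.11 ± 0.79, before Cyba at 9.76 ± 0.49, Rac1 at 9.20 ± 0.17 and Ncf4 at 8.98 ± 0.94. Neighbouring genes of these monocyte orders overlapped in range, other than Cyba and Rac1 in GS9820 monocytes.

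GS9820 was not seen to shift any subunit gene in sorted cells. Of 13968 genes, 0 were called in PMN and 0 in monocytes (0% each; limma, adjusted p under 0.05), and 430 and 335 had an unadjusted p under 0.05. Array quality weights and the other alternatives tried in limma also gave 0 calls among the oxidase genes. In PMN the GS9820 minus vehicle difference was 0.05 ± 0.19 for Cyba, 0.00 ± 0.44 for Ncf1, 0.29 ± 0.35 for Ncf4, 0.08 ± 0.30 for Rac2 and 0.04 ± 0.12 for Rac1. The 95% confidence intervals ran from -0.21 to 0.29 for Rac1 and from -0.95 to 0.95 for Ncf1, so that of Ncf1 included changes of nearly 2-fold in either direction. Some marker lists of other cells leaned 1 way between treatments in PMN, with 0 genes called. All 7 erythroid markers were lower in GS9820 PMN (median -2.37), as were all 8 macrophage markers (-0.81). All 8 T cell markers (0.44) and all 6 NK cell markers (0.45) were higher. In monocytes all 7 erythroid markers were lower too (-0.96). The part of these lists in the values of the subunit genes was not tested.

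In monocytes the treatment difference was -0.19 ± 0.19 for Cyba, -0.25 ± 0.44 for Ncf1, 0.06 ± 0.35 for Ncf4, -0.23 ± 0.30 for Rac2 and 0.11 ± 0.12 for Rac1, for which 2 of 4 GS9820 libraries lay above all vehicle libraries. Without the 2 libraries low in neutrophil markers the values of Cyba, Ncf1, Ncf4 and Rac2 became -0.44, -0.61, -0.44 and -0.54, none of them called (limma, adjusted p = 0.224, 0.339, 0.43 and 0.233). The 2 vehicle monocyte libraries that remained were also those highest in neutrophil markers, at 10.44 and 10.26, above the 9.11 to 9.93 of the 3 remaining GS9820 libraries. The part of this difference in the members' values was not tested. The effect in PMN minus that in monocytes gave 0 calls over all genes (269 at an unadjusted p under 0.05), with differences from -0.07 ± 0.16 for Rac1 to 0.30 ± 0.42 for Rac2.

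**Figure D3:**
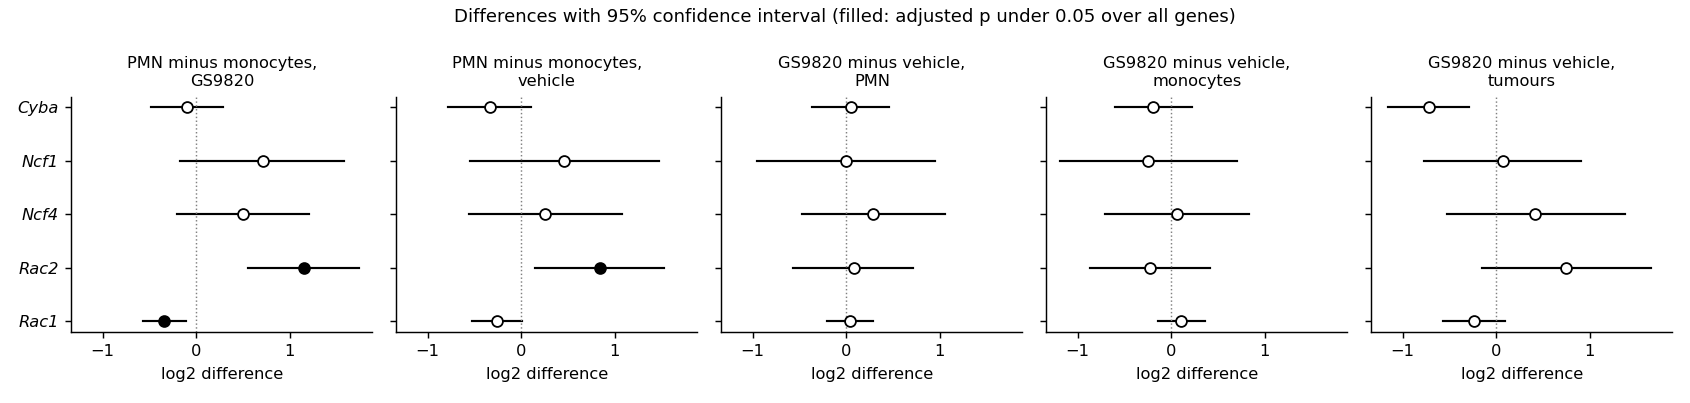
Difference of deposited log2 values for each subunit gene (points) with its 95% confidence interval (bars) in 5 comparisons; filled points have an adjusted p under 0.05 over all genes tested. Filled points are Rac2 in both PMN comparisons (1.15 and 0.84) and Rac1 in GS9820 mice (-0.34); the Cyba interval in tumours runs from -1.16 to -0.29.

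Whole tumours hold these transcripts from many cells, and Rac1, which nearly all cells express, led. Rac1 averaged 8.30 ± 0.18 (SD, n = 5) in GS9820 tumours and 8.54 ± 0.24 (SD, n = 7) in vehicle tumours, Cyba 6.78 ± 0.34 and 7.50 ± 0.35, and Ncf1 6.41 ± 0.86 and 6.34 ± 0.63. Rac2 averaged 5.94 ± 0.69 and 5.19 ± 0.85, and Ncf4 was lowest at 4.44 ± 0.66 and 4.01 ± 0.92. Of the 5 genes, 0 were called, where 2.20% of 16296 genes tested were (359 genes in limma, 0.878% higher and 1.33% lower). The lowest p was that of Cyba.

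Cyba stood at 6.36, 6.88, 6.49, 6.99 and 7.16 in the 5 GS9820 tumours, while the 7 vehicle tumours ranged from 6.92 to 7.94 with a median of 7.59. The GS9820 tumours lay at the low end and 3 of 5 were below every vehicle tumour, though the groups overlapped. The difference was -0.72 ± 0.20, or 1.65-fold lower in GS9820 tumours, and missed the threshold (limma, adjusted p = 0.0692). With array quality weights it was -0.56 and passed (adjusted p = 0.0418).

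Rac2 and Ncf4 leaned the other way with wide intervals. Rac2 stood at 5.11, 5.47, 5.99, 6.90 and 6.23 in GS9820 tumours and ranged from 4.03 to 6.49 with a median of 5.08 in vehicle tumours, a difference of 0.75 ± 0.42 (95% confidence interval -0.15 to 1.66, limma, adjusted p = 0.287). Only 1 GS9820 tumour lay above all vehicle tumours. Ncf4 stood at 3.31, 4.59, 4.82, 4.46 and 5.0 in GS9820 tumours and ranged from 2.68 to 4.92 with a median of 4.47 in vehicle tumours, a difference of 0.42 ± 0.44 (adjusted p = 0.577). Rac1 differed by -0.24 ± 0.15 (adjusted p = 0.355).

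Ncf1 had 1 GS9820 tumour far below the rest. It stood at 4.89, 6.73, 6.81, 6.66 and 6.96 in GS9820 tumours and ranged from 5.31 to 7.14 with a median of 6.52 in vehicle tumours. The difference was 0.07 ± 0.39 (limma, adjusted p = 0.927), and without the low tumour it was 0.45. Tumours low in Ncf1 were also low in leukocyte transcripts: the mean of 7 pan-leukocyte markers was 5.78 in the low GS9820 tumour, against 6.30 to 7.48 in the other 4, and 5.30 and 5.42 in the 2 vehicle tumours lowest in Ncf1, at 5.67 and 5.31. With that mean as a covariate the difference was -0.33 for Ncf1 and -0.09 for Ncf4, both turned in sign and uncalled (adjusted p = 0.549 and 0.889), while Cyba stayed at -0.86 (adjusted p = 0.0901).

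**Figure D4:**
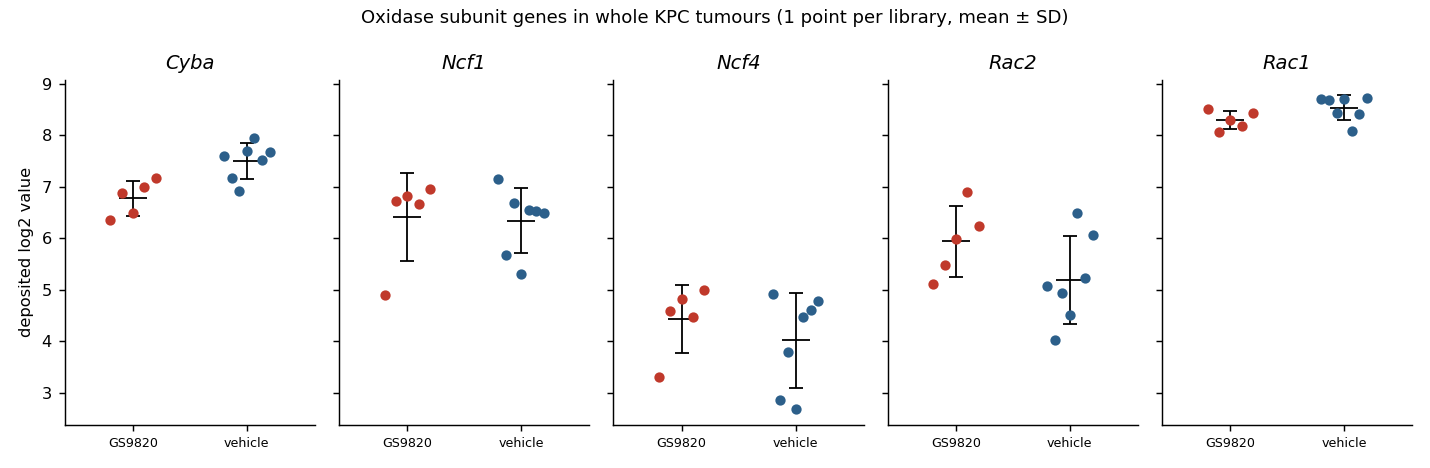
Deposited log2 values of the 5 oxidase subunit genes in whole tumours, 1 point per library, with group mean and SD (GS9820 n = 5, vehicle n = 7). Cyba points of GS9820 tumours (6.36 to 7.16) lie lower than those of vehicle tumours (6.92 to 7.94), with overlap.

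Within tumours, Rac2 minus Rac1 averaged -2.35 ± 0.76 in GS9820 and -3.35 ± 1.01 in vehicle tumours (exact permutation p = 0.0922, adjusted p = 0.277). Ncf1 minus Cyba averaged -0.37 ± 0.66 in GS9820 and -1.16 ± 0.71 in vehicle tumours (exact permutation p = 0.0871, adjusted p = 0.277). Neither passed. Both differences were below 0 on average in each tumour group and above 0 on average in each sorted group.

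Some markers of other cells differed between the tumour groups. Of 8 islet markers, 3 were called higher in GS9820 tumours, Ppy, Chga and Chgb, by 4.69 ± 1.10, 4.17 ± 0.90 and 4.73 ± 1.10 (limma, adjusted p = 0.0467, 0.0371 and 0.045). All 8 had a positive difference, with a median of 4.71, and their mean level was 5.88 to 9.25 in GS9820 and -0.04 to 7.35 in vehicle tumours. The endothelial gene Kdr and the fibroblast gene Dcn were called higher, by 1.06 ± 0.23 and 1.61 ± 0.33 (adjusted p = 0.0358 and 0.0339), as 1 of 5 and 1 of 7 markers. Of all genes tested in tumours, 0.878% were called higher. Without GS9820 replicate 4, or with the pan-leukocyte or acinar mean as a covariate, 0 genes passed in tumours, these markers included. The other lists had 0 calls. Their median differences were 2.82 for 5 hepatocyte, 2.13 for 9 acinar, 1.46 for 7 T cell, 1.22 for 7 B cell, 1.11 for 4 erythroid and 0.81 for 5 dendritic cell markers, each of these genes being positive in sign. The median was 0.52 for 7 pan-leukocyte, 0.23 for 12 monocyte, 0.20 for 8 macrophage and -1.17 for 13 neutrophil markers. The neutrophil list averaged 2.40 to 4.30 in GS9820 and 2.88 to 6.62 in vehicle tumours, and these ranges overlap. The part of these lists in the members' values was not tested, other than through the pan-leukocyte mean above and an acinar mean, under which Cyba differed by -0.72 (adjusted p = 0.191).

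Partners of the flavocytochrome were read from 3 genes. Rap1a, a small GTPase that copurifies with the flavocytochrome, was lower in PMN, at -0.96 ± 0.18 in GS9820 and -0.77 ± 0.20 in vehicle mice (limma, adjusted p = 3.4e-04 and 0.00547), and the other 2 did not pass. Cybc1, a chaperone of the flavocytochrome, differed by 0.00 ± 0.10 in GS9820 and 0.19 ± 0.11 in vehicle mice, and Hvcn1, the voltage-gated proton channel that carries charge for the oxidase, by -0.17 ± 0.40 in GS9820 and -0.66 ± 0.46 in vehicle mice. Of the 3, 0 were called for treatment in sorted cells or tumours.

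Receptors that trigger the burst had the largest median difference of the pathway lists read beside the subunits. Of 12, 11 were higher and 1 lower in PMN under both treatments. The shares of all genes called higher and lower were 32.1% and 37.6% in GS9820 and 27.2% and 32.8% in vehicle mice. The median difference of the 12 was 1.89 in GS9820 and 2.03 in vehicle mice, against -0.07 over all genes. Fpr1, a receptor for bacterial formyl peptides, differed by 5.51 ± 0.63 in GS9820 and 4.67 ± 0.73 in vehicle mice, the complement receptor gene C5ar1 by 3.49 ± 0.50 in GS9820 and 3.13 ± 0.57 in vehicle mice, and the IgG receptor gene Fcgr4 by 3.37 ± 0.51 in GS9820 and 3.76 ± 0.59 in vehicle mice. Fcgr1, the high-affinity IgG receptor gene, was the exception at -2.94 ± 0.45 in GS9820 and -2.32 ± 0.52 in vehicle mice.

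PI3K genes, the drug target's family, were read with partners and some other phosphoinositide enzymes, 13 genes in all. Of the 13, 7 were higher in PMN of GS9820 mice and 5 in vehicle mice, with 0 lower. Their median difference was 0.35 under both treatments. Inpp5d, Pip4k2a and Mtmr3, which are not PI3K genes, were uncalled under both. Over all genes 32.1% were higher and 37.6% lower in GS9820 mice, and 27.2% and 32.8% in vehicle mice. Pik3r1, a regulatory subunit of the class of p110δ, differed by 1.15 ± 0.12 in GS9820 and 1.01 ± 0.13 in vehicle mice, and Pik3r5, a regulatory subunit of PI3Kγ, by 1.02 ± 0.16 in GS9820 and 0.99 ± 0.18 in vehicle mice. Pik3ca, which encodes p110α, was higher by 0.73 ± 0.14 in GS9820 and 0.60 ± 0.16 in vehicle mice, and Pik3cg, which encodes p110γ, by 0.61 ± 0.14 in GS9820 and 0.66 ± 0.16 in vehicle mice. Pik3cd, which encodes p110δ itself, averaged 8.97 in GS9820 PMN and 8.63 in GS9820 monocytes and did not pass (0.34 ± 0.19, limma, adjusted p = 0.129). In vehicle mice it averaged 8.92 in PMN and 8.43 in monocytes and did not pass either (0.49 ± 0.22, adjusted p = 0.0702). In tumours 0 of the 13 were called, with Pik3r1 at 0.56 ± 0.24 and Pik3cd at 0.70 ± 0.34 of smallest p (adjusted p = 0.176 and 0.229).

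Among regulators of Rac, 4 of 8 exchange factors were higher and 2 lower in PMN of GS9820 mice, and 2 higher and 1 lower in vehicle mice. Over all genes 69.6% were called in GS9820 and 60.1% in vehicle mice. For this reason 6 of 8 and 3 of 8 are not read as a result about these genes. The same holds for the counts of Rac inhibitors and related GTPases below. Tiam1 differed by -1.84 ± 0.16 in GS9820 and -2.05 ± 0.19 in vehicle mice. In GS9820 mice Vav2 was lower, at -1.05 ± 0.34, and Dock5 higher, at 0.76 ± 0.21; neither passed in vehicle mice. Prex1, an exchange factor that responds to the PI3K product and acts on Rac2 in neutrophils, was higher by 0.62 ± 0.17 in GS9820 and 0.80 ± 0.19 in vehicle mice. Vav3 was higher by 0.73 ± 0.11 in GS9820 and 0.59 ± 0.13 in vehicle mice. Of 7 Rac inhibitors, 2 were higher and 2 lower under both treatments: Arhgap25, a GTPase activator for Rac, differed by 2.18 ± 0.15 in GS9820 and 1.85 ± 0.17 in vehicle mice, Abr by 0.75 ± 0.12 in GS9820 and 0.71 ± 0.14 in vehicle mice, the guanine nucleotide dissociation inhibitor gene Arhgdia by -0.96 ± 0.11 in GS9820 and -0.76 ± 0.13 in vehicle mice, and Arhgap15 by -0.45 ± 0.13 in GS9820 and -0.42 ± 0.15 in vehicle mice. Of 4 related GTPases tested, Rhog and Rhoh were higher in PMN, by 0.86 ± 0.08 and 1.05 ± 0.25 in GS9820 mice and 0.73 ± 0.09 and 1.01 ± 0.29 in vehicle mice.

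Of 13 activating kinases and lipases, 6 were higher and 2 lower in PMN of GS9820 mice, and 5 higher and 3 lower in vehicle mice, so 8 of 13 were called under both treatments, near the 69.6% of all genes called in GS9820 and 60.1% in vehicle mice. Rasgrp4 differed by 1.69 ± 0.13 in GS9820 and 1.64 ± 0.15 in vehicle mice, Syk, the kinase below Fc receptors and integrins, by 1.17 ± 0.11 in GS9820 and 1.07 ± 0.12 in vehicle mice, and Prkca by 0.69 ± 0.28 in GS9820 and 1.10 ± 0.32 in vehicle mice. Plcg2 differed by -0.67 ± 0.08 in GS9820 and -0.66 ± 0.09 in vehicle mice. Prkcz differed by -1.40 ± 0.52 in vehicle mice, where it averaged -1.33 in PMN and 0.07 in monocytes. In GS9820 mice Prkcz differed by -0.82 ± 0.45 and did not pass (limma, adjusted p = 0.12). Of 11 transcription factors tested, 3 were higher and 3 lower in GS9820 mice, and 3 higher and 2 lower in vehicle mice. Beside the shares of all genes, 32.1% and 37.6% in GS9820 and 27.2% and 32.8% in vehicle mice, these counts are not read as a result. Irf8, which drives monocyte development, was lower in PMN, at -2.35 ± 0.31 in GS9820 and -1.64 ± 0.36 in vehicle mice, and Cebpa at -1.99 ± 0.30 in GS9820 and -1.70 ± 0.34 in vehicle mice. Cebpd was higher by 1.49 ± 0.20 in GS9820 and 1.06 ± 0.23 in vehicle mice and Irf1 by 1.11 ± 0.26 in GS9820 and 1.27 ± 0.30 in vehicle mice. Spi1, which encodes PU.1, a regulator of several oxidase genes, was higher by 0.72 ± 0.09 in GS9820 and 0.71 ± 0.10 in vehicle mice.

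Of 19 genes tested that remove or use the products of the oxidase, 3 were higher and 10 lower in PMN of GS9820 mice, where 32.1% and 37.6% of all genes were. In vehicle mice 3 were higher and 8 lower, where 27.2% and 32.8% of all genes were. The median difference was -0.45 in GS9820 and -0.38 in vehicle mice, against -0.07 over all genes under both treatments. Mpo, the granule enzyme that turns hydrogen peroxide into hypochlorous acid, differed by -4.83 ± 0.63 in GS9820 and -5.08 ± 0.73 in vehicle mice, and Prdx1 by -2.54 ± 0.28 in GS9820 and -1.91 ± 0.33 in vehicle mice. Prdx2 differed by -2.34 ± 0.31 in GS9820 mice and Gpx3 by -2.28 ± 0.58 in vehicle mice, both genes of peroxide removal. Nqo1, a quinone reductase, was higher by 2.54 ± 0.47 in GS9820 and 2.38 ± 0.54 in vehicle mice. In tumours 1 of 19 was called for treatment: Prdx2, at 8.02 in GS9820 and 9.0 in vehicle tumours, fell by 0.98 ± 0.20 (limma, adjusted p = 0.035). Over all genes 0 passed in tumours with the pan-leukocyte or acinar mean as a covariate or without GS9820 replicate 4, so this call was lost there.

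Of 7 NADPH supply genes tested, 3 were higher and 3 lower in PMN under both treatments. Of all genes 32.1% were higher and 37.6% lower in GS9820 mice, and 27.2% and 32.8% in vehicle mice. The counts are therefore not read as a result about NADPH supply. Nadk, which makes NADP from NAD, was higher by 0.85 ± 0.17 in GS9820 and 0.90 ± 0.19 in vehicle mice. Of the pentose phosphate pathway, Taldo1 was higher by 0.86 ± 0.15 in GS9820 and 0.80 ± 0.18 in vehicle mice. Pgd of the same pathway was higher by 0.85 ± 0.21 in GS9820 and 0.74 ± 0.24 in vehicle mice. Pgls was lower, at -0.76 ± 0.15 in GS9820 and -0.99 ± 0.17 in vehicle mice. The isocitrate dehydrogenase genes Idh2 and Idh1 were lower, at -2.33 ± 0.23 and -1.23 ± 0.22 in GS9820 mice and -1.95 ± 0.26 and -1.17 ± 0.25 in vehicle mice. Of the 9 genes of other NADPH oxidases and their partners, 1 was tested in sorted cells: Noxo1, at -0.45 ± 0.18 in GS9820 mice, passed (adjusted p = 0.0432), and at -0.30 ± 0.21 in vehicle mice did not. In tumours 7 were tested and 0 called. In sorted cells 0 genes of all these lists were called for treatment.

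The genes most like each subunit gene were found as those with the smallest root mean square (RMS) difference of centred log2 values, among 10040 protein-coding genes in the 14 sorted-cell libraries and 12626 in the 12 tumours. These are descriptions over libraries that share cell types. In sorted cells Rac2 was nearest to Med31, Ccdc88b and Hk3, a hexokinase of myeloid cells (RMS 0.12, 0.12 and 0.13, against a spread of 0.63 of Rac2 itself). Ncf1 was nearest to Gtf2ird2, to the neutrophil surface gene Cd177 and to Ckap4 (0.11, 0.13 and 0.14, own spread 0.62). Ncf4 was nearest to Ap1s3, Npepps and Agtrap (0.16, 0.19 and 0.22), Cyba to Myl6, Agtpbp1 and Ppp1cb (0.09, 0.10 and 0.11), and Rac1 to Golga7, Tfg and Morf4l1 (0.06, 0.07 and 0.08). Among the subunit genes themselves, Ncf1 lay nearest to Ncf4 (0.30) and Rac2 (0.33), and farthest from Rac1 (0.78).

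In tumours the neighbours of Ncf1 were the leukocyte surface genes Cd84, Sirpa and Itgb2 (RMS 0.17, 0.23 and 0.23, own spread 0.67), and those of Ncf4 were Cyth4, Sirpa and Myo1f (0.22, 0.26 and 0.30, own spread 0.79). Rac2 was nearest to Nfkbid, Shisa5 and Ell3, less closely (0.31, 0.32 and 0.41, own spread 0.81). Cyba was nearest to Thnsl1, Nek7 and Jagn1 (0.19, 0.23 and 0.23, own spread 0.47). Rac1 was nearest to Rab1b, Dnaja2 and Eif4h (0.08, 0.09 and 0.12, own spread 0.23). Ncf1 and Ncf4 again lay nearest to each other among the subunit genes (0.39), while Cyba lay as far from Ncf1 as 0.74 and from Ncf4 as 0.88.

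Some subunit genes overlap a gene on the other strand, and it was not stated whether counting used strand. Gtf2ird2 (chromosome 5, 134184019 to 134224355, plus strand) overlaps Ncf1, and 153 of 3757 words of 100 bases in Ncf1 transcripts occur in its transcripts on the opposite strand. In the 14 sorted-cell libraries Ncf1 stood above Gtf2ird2 by 2.45 to 2.81, an almost constant step, although Ncf1 itself ranged from 9.13 to 11.27. In the 12 tumours, whose library kit was stranded per the labels, the step ranged from 1.03 to 2.34 and the RMS difference was 0.41. Reads of Ncf1 and Gtf2ird2 cannot be told apart without strand where they overlap.

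**Figure D5:**
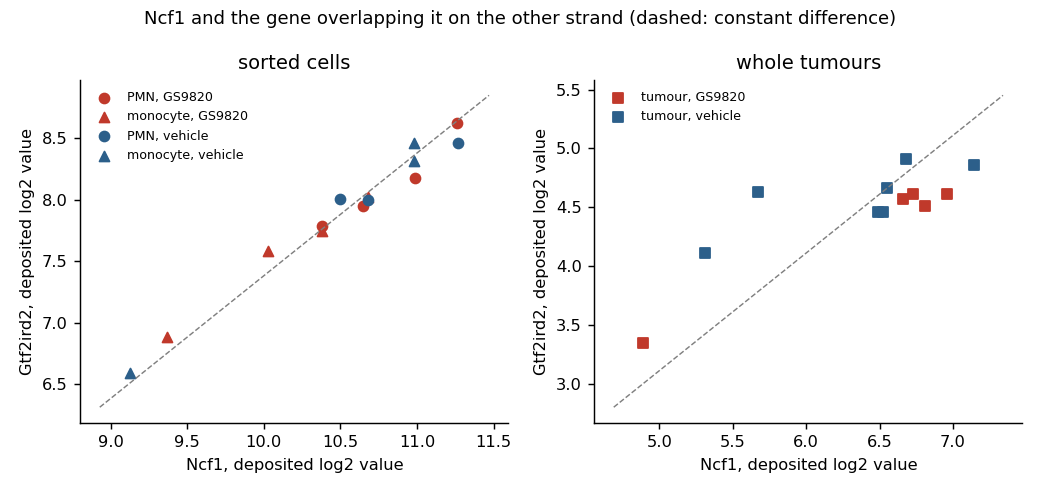
Gtf2ird2 (vertical axis) against Ncf1 (horizontal axis), deposited log2 values, 1 point per library, in sorted cells and in whole tumours; the dashed line marks a constant difference. Sorted-cell points follow the line (difference 2.45 to 2.81), while tumour points spread from 1.03 to 2.34.

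Daglb (chromosome 5, 143464584 to 143505942, plus strand) overlaps Rac1 in the same way, with 2210 of 4494 words shared on the opposite strand. Daglb stood 2.94 to 4.92 below Rac1 across all libraries, at 4.86 to 5.53 in PMN and 5.78 to 6.46 in monocytes, so it too was lower in PMN. In tumours Daglb averaged 4.93 ± 0.32 under GS9820 (SD, n = 5) and 4.33 ± 0.51 under vehicle (SD, n = 7). There the sign was opposite to that of Rac1 (-0.24, uncalled). The part of Daglb in the Rac1 values was not tested. Cyba lies inside the span of the readthrough model Gm20388 on the other strand and shared 0 such words with any gene. Gm20388 averaged 9.43 ± 0.37 in GS9820 PMN and 11.12 ± 0.23 in GS9820 monocytes (SD, n = 4 each), and 9.65 ± 0.52 in vehicle PMN and 10.78 ± 0.10 in vehicle monocytes (SD, n = 3 each). In tumours it averaged 10.11 ± 0.95 under GS9820 (SD, n = 5) and 12.13 ± 0.63 under vehicle (SD, n = 7). The signs of its differences were those of Cyba between PMN and monocytes and in tumours. For treatment within PMN and within monocytes, Gm20388 and Cyba (0.05 and -0.19, uncalled) had opposite signs. The part of Gm20388 in the Cyba values was not tested. Ncf4 and Rac2 overlapped no annotated gene.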

How the data were processed

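RNA sequencing gave 26 libraries, grouped by GEO's labels. The deposited values are on a log2 scale, under the authors' column name log2 RPKM. Per the submitters' processing notes, TopHat2, STAR and limma were used with mm10; versions and roles are not given in the sources used here. Per the labels' protocols, reads were paired, tumour libraries stranded, and sorted-cell libraries made with either of 2 kits, which one per library not being given, so a kit effect cannot be told apart. After reversal of the log2, sums per library were 1552394 to 1552449 in tumours and 1429080 to 1430327 in sorted cells, so the values are not plain RPKM and depth is unknown. No pair of libraries was identical (0 pairs).

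Symbols came from GENCODE M21 (GRCm38), in which 16039 of 16322 tumour and 13886 of 14131 sorted-cell identifiers matched. A gene was kept where 5 or more tumours, or 3 or more sorted-cell libraries, held a value of 0 or above. The test was that of limma 3.58.1 in R 4.3.3 (lmFit, then eBayes with a trend, two-sided), 1 fit per set, with Benjamini-Hochberg adjustment over 16296 and 13968 genes. The pipeline was tested on simulated data. Within-library differences had exact permutation tests, and 4 libraries against 3 cannot go below p = 0.0286. A planned test of Cybb minus Cyba was not run. Correlations of the deviations of same-numbered libraries ran from -0.44 to 0.46 over all pairs of groups. For PMN against monocytes they ran from -0.22 to 0.45 in GS9820 mice, with 2 of 4 over 0.1. In vehicle mice they ran from 0.09 to 0.46, with 2 of 3 over 0.1. Whether PMN and monocytes of 1 number came from 1 animal was thus not settled. The main fit and the permutation tests took all libraries as independent.

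The subunit genes and gene lists were chosen with earlier results of these data known; some genes of the lists are not reported here. Pathway genes named are up to 4 called members of largest difference per list, or else up to 2 of smallest p. Pik3cd, Spi1, Pgd, Inpp5d, Pip4k2a and Mtmr3 were named after their values were seen. Alternatives were no or a stricter filter, log2 of the value plus 1, quantile or median scaling, no trend, array weights, a replicate block, fewer groups in the fit, covariates and leaving out libraries.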

Additional observations from a re-analysis of the deposited data

Results flagged for a closer look

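Of 32 groups examined for a sample far from the others, 1 held one, where chance gives about 1 in 20. Ncf1 in GS9820 tumour replicate 1 stood at 4.89, with the nearest of the other 4 tumours at 6.66, a gap of 0.855 of the whole range of the group. The pan-leukocyte marker mean of that tumour was 5.78 and its macrophage marker mean 6.39, the lowest of the 5 GS9820 tumours in both.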

How the results depend on the processing

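Of 1125 alternative values, 1053 kept their direction and side of the threshold, 23 became weaker, 14 became stronger and 35 reversed; causes were not tested. In tumours 359 genes passed; array quality weights gave 2764, a replicate block of the shared number 166, the pan-leukocyte covariate 0, an acinar covariate added after seeing the data 0, and leaving out 1 library gave from 0 (without GS9820 replicate 4) to 1693 (without vehicle replicate 5). Array weights gave 1 oxidase gene there in place of 0, Cyba. Of oxidase genes in vehicle PMN against monocytes, array weights, the replicate block (Rac2 0.84, adjusted p = 0.0695) and fitting only the groups compared (Rac2 0.84, adjusted p = 0.133) gave 0 in place of 1, and leaving out 1 library gave 0 to 2. In GS9820 mice, fitting only the groups compared gave 4 in place of 2 (Ncf1 0.71 and Ncf4 0.50, adjusted p = 0.0481 and 0.0283), and leaving out 1 library 2 to 4. The replicate block changed no other call of a subunit gene.

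Signs that turned belonged to uncalled differences. Leaving out both monocyte libraries lowest in neutrophil markers turned vehicle PMN against monocytes to -0.16 (Ncf1) and -0.28 (Ncf4), and treatment in monocytes to -0.44 (Ncf4). Array weights turned treatment to -0.02 for Cyba in PMN. The pan-leukocyte covariate turned tumours to -0.33 (Ncf1) and -0.09 (Ncf4). Leaving out 1 library gave, for vehicle PMN against monocytes, -0.16 to 0.77 (Ncf1) and -0.28 to 0.54 (Ncf4). For treatment in PMN it gave -0.05 to 0.13 (Cyba), -0.04 to 0.13 (Rac1) and -0.02 to 0.20 (Rac2). For treatment in monocytes it gave -0.86 to 0.06 (Ncf1), -0.48 to 0.33 (Ncf4) and -0.68 to 0.01 (Rac2), and in tumours -0.10 to 0.45 (Ncf1). For the difference of effects it gave -0.06 to 0.86 (Ncf1), -0.04 to 0.78 (Ncf4) and -0.17 to 0.02 (Rac1). Within libraries, Ncf1 minus Cyba for treatment gave -0.16 to 0.10 in PMN and -0.39 to 0.16 in monocytes, and Rac2 minus Rac1 -0.16 to 0.24 in PMN. Depth is unknown, so no counting error could be given.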
